A study of Mus musculus with 32 samples.

Results

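The Hedgehog pathway genes measured here were 8: the ligands Shh and Ihh, the receptor Ptch1, the decoy receptor Hhip, the signal transducer Smo, and the transcription factors Gli1, Gli2 and Gli3. They were chosen by name, as every probe whose gene name on the array was one of these, and they made up 8 of the 35715 gene names that the arrays carry. RNA came from whole lungs of 32 newborn C57Bl/6J mice, one mouse per array. The pups breathed either 21% O2 (room air) or 85% O2 (hyperoxia, an animal model of bronchopulmonary dysplasia, the lung disease of preterm infants in which alveoli fail to form). By injection into the abdomen in the first days of life, early in the oxygen exposure, they received either a scrambled antimiR, an inert oligonucleotide, or antimiR-34a, a locked nucleic acid oligonucleotide that binds and blocks the microRNA miR-34a. Lungs were perfused with PBS and taken at postnatal day 5 (P5), when the alveolar walls are forming fastest, or at P14, when that process is nearly complete. Each combination of age, oxygen and antimiR held 4 mice, which gave 8 groups. All mice of the groups therefore had an oligonucleotide injected, and no mice without injection were measured. The oligonucleotide reached the whole animal and not one cell type. The arrays lay on 4 slides, each with the 8 mice of 1 age and 1 oxygen level, so oxygen level and age cannot be told apart from slide. Within a slide the scrambled antimiR mice lay on one row of arrays and the antimiR-34a mice on the other, so antimiR cannot be told apart from array row.

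Hedgehog ligands are secreted proteins that bind Ptch1. Unbound Ptch1 holds Smo inactive. Binding of the ligand frees Smo, which acts through the primary cilium to keep the Gli factors from being cut into repressors. Gli2 is the main activator and Gli3 the main repressor of the pathway, while Gli1 is itself switched on by the signal. Transcription of Gli1, Ptch1 and Hhip is a widely used readout of pathway activity, and Ptch1 and Hhip in turn restrain the signal. In the lung, Shh is made by the epithelium and read by the mesenchyme, where it shapes branching before birth and the fibroblast and myofibroblast lineages afterwards.

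The mature microRNA that the antimiR was directed against is shown first, with its seed (bases 2 to 8, the part that pairs with target messages) in capitals. It was taken from RefSeq and lies at chr4:150068473-150068494 on the plus strand of GRCm38.p6. The 250 bases before the start of Ptch1 (chr13:63565736-63565985) and of Hhip (chr8:80058009-80058258), both on the minus strand of GRCm38.p6, follow, since Ptch1 carried the largest oxygen difference of the 8 genes and Hhip one whose sign differed between its probes. GC boxes (GGGCGG, or CCGCCC on the other strand) are in capitals.
miR-34a-5p: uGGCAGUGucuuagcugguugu
Ptch1: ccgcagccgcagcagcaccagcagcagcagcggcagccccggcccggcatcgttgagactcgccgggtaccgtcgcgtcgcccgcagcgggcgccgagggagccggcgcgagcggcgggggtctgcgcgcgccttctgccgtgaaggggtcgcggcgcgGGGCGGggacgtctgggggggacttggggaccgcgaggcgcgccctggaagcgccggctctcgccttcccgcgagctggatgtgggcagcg
Hhip: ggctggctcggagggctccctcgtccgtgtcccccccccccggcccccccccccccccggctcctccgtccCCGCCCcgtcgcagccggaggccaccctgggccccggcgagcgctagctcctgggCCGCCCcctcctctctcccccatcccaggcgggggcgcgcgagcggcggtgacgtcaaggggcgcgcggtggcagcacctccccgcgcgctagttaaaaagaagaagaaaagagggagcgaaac
Both promoters were rich in CG. Windows of 300 bases around the start (250 before and 50 after) were at hand for 6 of the 8 genes, namely Ihh, Gli2, Gli3, Ptch1, Hhip and Smo. Their share of G and C lay between 67.3% for Gli2 and 76.3% for Ptch1, against a median of 52.7% over all 32851 mouse windows, and 13.8% of all windows reached the lowest of the 6. A GC box was found in 5 of the 6 windows, with Smo as the exception, and in 35.7% of all windows. The Gli binding motif (TGGGTGGTC, searched on both strands) was in none of the 6 windows and in 0.253% of all windows, which says only that these letters do not occur there.

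Values below are log2 levels: the log2 of a probe's brightness minus the 75th percentile of its array, so that 0 is the brightness at that percentile. The level of one probe cannot be set against that of another, because probes differ in how brightly they bind. The 8 genes had 11 probes, since Gli1, Hhip and Smo had 2 each. The brightest probe of every gene was well above background on all 32 arrays, while the second Gli1 probe was so on at most 3 of the 4 arrays of any group and was not tested. Tests were made with limma over all probes above background, and a gene is called where its Benjamini-Hochberg adjusted p over all of them was under 0.05. Between 33616 and 40788 of the 55681 mouse probes were well above background on an array, and no mouse spot was saturated. All 12 markers of type I and type II pneumocytes that were looked at, Sftpc and Aqp5 among them, were well above background on all 32 arrays. In bulk tissue such as this, fewer cells of a type and less RNA per cell cannot be told apart.

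Across the 8 groups the levels of Gli1, Gli3, Ptch1 and Shh moved most. Gli1 fell into 3 levels that did not overlap. The highest held the P5 groups, with antimiR-34a in 21% O2 at 2.95, 2.84, 3.00 and 3.28 and the other 12 mice between 2.49 and 2.90. In 85% O2 at P14 the scrambled antimiR mice were at 2.31, 2.13, 2.03 and 1.92 and the antimiR-34a mice at 2.40, 2.36, 2.47 and 2.24. The lowest were both P14 groups in 21% O2, at 1.58, 1.70, 1.65 and 1.59 with the scrambled antimiR and at 1.76, 1.51, 1.66 and 1.29 with antimiR-34a. Within each level the groups overlapped, except that at P5 the antimiR-34a mice in 21% O2 lay above the scrambled antimiR mice in 85% O2. Gli3 was highest in both P5 groups in 21% O2, which no other group reached. Shh was highest in both P5 groups in 85% O2, where the lowest of the 8 mice, at -0.31, was the only one within the range of another group. Of Gli2, Ihh, Smo and Hhip on its brightest probe, no group was separated from its neighbour in the order of means.

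**Figure D1:**
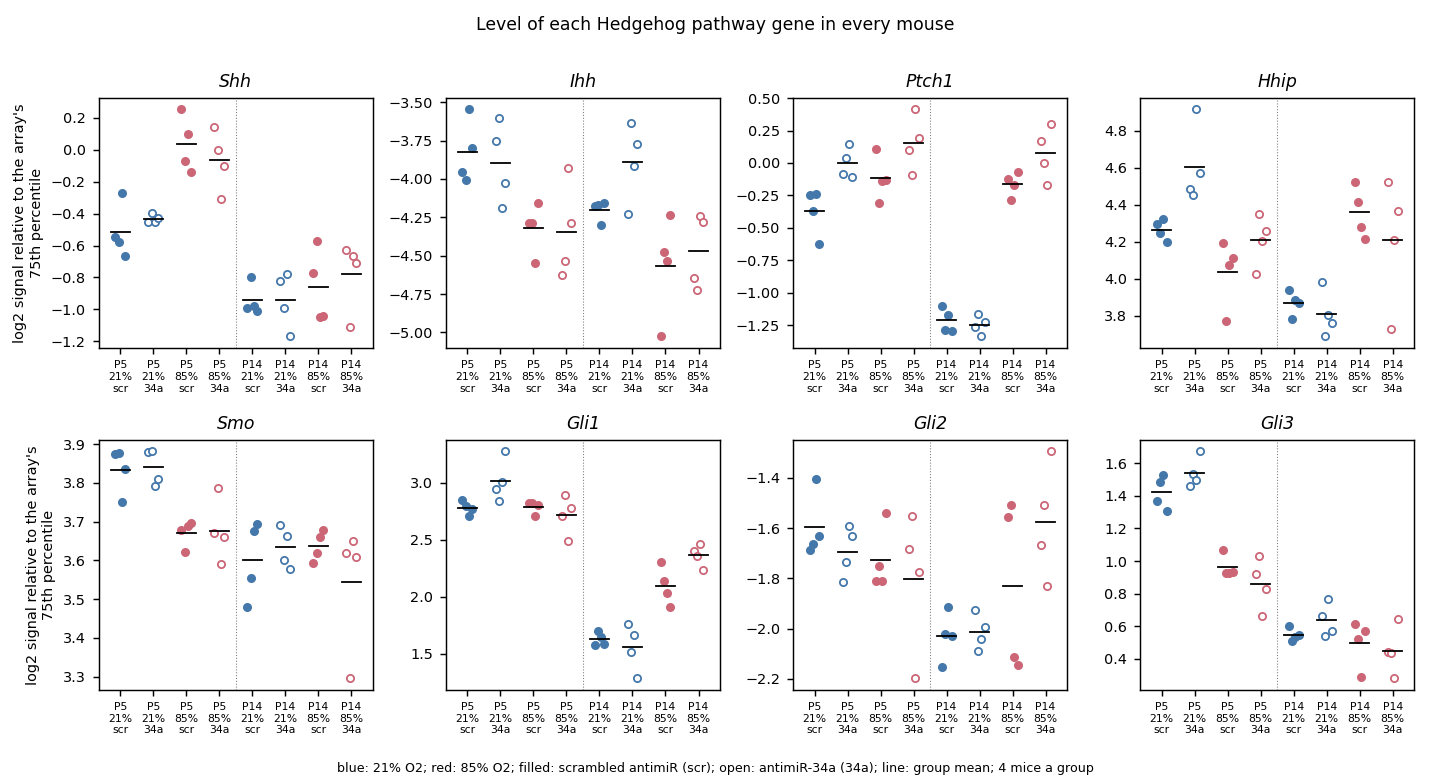
Log2 level (75th percentile of the array = 0) of the brightest probe of the 8 Hedgehog genes in each of the 32 mice, by age, oxygen and antimiR; points are mice (filled for scrambled antimiR, open for antimiR-34a, blue for 21% O2, red for 85% O2) and lines are group means (n = 4). Ptch1 was lowest in both P14 groups in 21% O2, between -1.34 and -1.10, and no other group overlapped with them.

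Ptch1, the receptor that the pathway itself induces, showed the largest oxygen difference of the 8. At P14 the scrambled antimiR mice read -1.10, -1.29, -1.17 and -1.29 in 21% O2 and -0.12, -0.28, -0.17 and -0.07 in 85% O2. All 4 mice in hyperoxia lay above all 4 in room air. Ptch1 rose by 1.05 ± 0.09 (SE) on the log2 scale, 2.08-fold, with a 95% interval of 0.85 to 1.26 and a adjusted p of 7.28e-07. In antimiR-34a mice of the same age the values were -1.26, -1.16, -1.34 and -1.22 in 21% O2 and 0.17, -0.0020, -0.17 and 0.30 in 85% O2. That is a rise of 1.32 ± 0.09, or 2.50-fold (adjusted p = 9.15e-08). These mice share no sample with the first comparison, but they lay on the same slides and were in the same fit. At P5 the scrambled antimiR mice were at -0.24, -0.37, -0.24 and -0.62 in 21% O2 and at 0.11, -0.31, -0.14 and -0.13 in 85% O2. These groups overlapped, and the difference of 0.25 ± 0.12 was not called (adjusted p = 0.0993). With the array's 75th percentile as a covariate it was called, at 0.26 (adjusted p = 0.0125). In antimiR-34a mice at P5 the difference was 0.15 (adjusted p = 0.309).

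Gli1, the transcription factor that the signal switches on, also rose at P14. In scrambled antimiR mice the difference between oxygen levels was 0.47 ± 0.10, 1.38-fold (adjusted p = 0.00156), with no overlap between the groups given above. In antimiR-34a mice it was 0.81 ± 0.10, 1.75-fold (adjusted p = 1.54e-05). At P5 the scrambled antimiR mice read 2.85, 2.80, 2.71 and 2.77 in 21% O2 and 2.82, 2.82, 2.71 and 2.81 in 85% O2. The 2 sets of values lay on top of each other, with a difference of 0.01 and a 95% interval of -0.19 to 0.21. In antimiR-34a mice at P5, Gli1 fell by 0.30 in 85% O2 (adjusted p = 0.0188). That call was lost without replicate 4 of the mice in 21% O2 (adjusted p = 0.0637) or replicate 3 of those in 85% O2 (adjusted p = 0.0538), with only the compared groups in the fit (adjusted p = 0.0747) and with the methods' t-test (adjusted p = 0.117). The brightest of the 4 mice in 21% O2, at 3.28, was replicate 4.

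Hhip, the membrane protein that binds and sequesters the ligand, rose at P14 on its brightest probe. The scrambled antimiR mice read 3.94, 3.79, 3.88 and 3.87 in 21% O2 and 4.52, 4.42, 4.28 and 4.22 in 85% O2, a rise of 0.49 ± 0.14 or 1.40-fold (adjusted p = 0.00687) with no overlap. With quantile normalization in place of the 75th percentile it was 0.30 and no longer called (adjusted p = 0.102), and with the authors' values likewise (adjusted p = 0.104). In antimiR-34a mice Hhip rose by 0.40 (adjusted p = 0.0200). That call was lost with quantile normalization (0.21, adjusted p = 0.242), with the authors' values (0.21, adjusted p = 0.243), with only the compared groups in the fit (adjusted p = 0.0710) and with the methods' t-test (adjusted p = 0.140). It was also lost without antimiR-34a replicate 1 (adjusted p = 0.0704) or replicate 4 (adjusted p = 0.0563) in 85% O2, or replicate 2 in 21% O2 (adjusted p = 0.0555). At P5 the direction was the other way: -0.23 with the scrambled antimiR, which was not called (adjusted p = 0.107) although the groups did not overlap, and a fall of 0.39 with antimiR-34a (adjusted p = 0.00933). The former was called with array weights (-0.27, adjusted p = 0.0484), and the latter was lost with the methods' t-test (adjusted p = 0.0668) and with the mean of its probes (-0.26, adjusted p = 0.0529). The second Hhip probe, described further on, did not follow this one.

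Smo, the membrane protein that Ptch1 inhibits and that passes the signal on, moved little. On its brightest probe every mouse lay between 3.30 and 3.88. At P5, 85% O2 lowered it by 0.16 ± 0.05, 1.12-fold, in scrambled antimiR mice (adjusted p = 0.0260) and by the same amount in antimiR-34a mice (adjusted p = 0.0228), without overlap in either. These small calls did not hold throughout. The first was lost with normexp background correction (adjusted p = 0.0714), with no filter on dim probes (adjusted p = 0.0566), with only the compared groups in the fit (adjusted p = 0.0594) and without any one of 3 mice (adjusted p between 0.0653 and 0.0724), which were scrambled antimiR replicates 1 and 2 in 21% O2 and replicate 2 in 85% O2. The second was lost in the same 3 settings and by the methods' t-test (adjusted p between 0.0508 and 0.0755), and without antimiR-34a replicate 1 or 2 in 21% O2, or replicate 3 or 4 in 85% O2 (adjusted p between 0.0539 and 0.0607). At P14 the differences were 0.04 and -0.09, with 95% intervals of -0.14 to 0.21 and -0.26 to 0.08, and were not called. The former turned to -0.13 with quantile normalization or the authors' values (adjusted p = 0.239 and 0.232), and to a called fall with the mean of both Smo probes (-1.17, adjusted p = 0.00114), of which the second, described further on, is of uncertain match to Smo.

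Shh, the main Hedgehog ligand of the lung, rose with oxygen at P5 and was not called at P14. In scrambled antimiR mice it read -0.54, -0.58, -0.27 and -0.67 in 21% O2 and 0.25, -0.07, 0.10 and -0.14 in 85% O2. The groups did not overlap, and the rise was 0.55 ± 0.11 or 1.47-fold (adjusted p = 0.00108). In antimiR-34a mice the values were -0.45, -0.40, -0.45 and -0.43 in 21% O2 and 0.14, 0.0020, -0.31 and -0.10 in 85% O2, a rise of 0.37 (adjusted p = 0.0134) that also left no overlap. It was not called by the methods' t-test (adjusted p = 0.0747). At P14 the scrambled antimiR mice were at -0.99, -0.79, -0.98 and -1.01 in 21% O2 and at -0.77, -0.57, -1.05 and -1.04 in 85% O2. These overlapped, with a difference of 0.08 and a 95% interval of -0.20 to 0.37.

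Ihh, a second ligand better known from cartilage and gut, was well above background on all 32 arrays. Its levels lay between -4.62 and -3.55 in the P5 mice and between -5.03 and -3.64 in the P14 mice. In 85% O2 it fell by 0.49 at P5 (adjusted p = 0.0241) and differed by -0.37 at P14 (adjusted p = 0.0701) with the scrambled antimiR. With antimiR-34a it fell by 0.45 at P5 (adjusted p = 0.0344) and by 0.58 at P14 (adjusted p = 0.00699). The size and, at P14, the sign depended on the scaling. With quantile normalization the scrambled antimiR difference was -0.22 at P5 (adjusted p = 0.238) and turned to 0.03 at P14, and the antimiR-34a difference at P14 turned to 0.10. With normexp these were -0.23 (adjusted p = 0.125), 0.14 and -0.10, none called. The P5 call with the scrambled antimiR was also lost without replicate 3 of either oxygen level (adjusted p 0.0763 and 0.0747). The P5 call with antimiR-34a was lost with normexp (-0.25, adjusted p = 0.0905), quantile normalization (-0.20, adjusted p = 0.297), the authors' values (-0.20, adjusted p = 0.298), no filter on dim probes (adjusted p = 0.0606), only the compared groups in the fit (adjusted p = 0.0769), the methods' t-test (adjusted p = 0.137) and the replicate block (adjusted p = 0.0602). It was also lost without antimiR-34a replicate 1 or 2 in 21% O2, or replicate 1, 2 or 4 in 85% O2 (adjusted p between 0.0543 and 0.107). At P14 the scrambled antimiR difference was called without replicate 4 in 85% O2 (-0.48, adjusted p = 0.0266), with the replicate block (-0.37, adjusted p = 0.0396), with array weights (-0.36, adjusted p = 0.0275) and with the 75th percentile as a covariate (-0.51, adjusted p = 0.0124).

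Gli3, the main repressor, fell at P5. The scrambled antimiR mice read 1.37, 1.48, 1.53 and 1.31 in 21% O2 and 1.07, 0.93, 0.93 and 0.93 in 85% O2. No value of one group lay within the other, and the fall was 0.46 ± 0.08 on the log2 scale, or 1.37-fold (adjusted p = 0.000456). The antimiR-34a mice were at 1.46, 1.54, 1.5 and 1.67 in 21% O2 and at 0.92, 1.03, 0.66 and 0.83 in 85% O2. There Gli3 fell by 0.68, or 1.60-fold (adjusted p = 1.38e-05). At P14 the scrambled antimiR mice were at 0.60, 0.51, 0.53 and 0.55 in 21% O2 and at 0.62, 0.52, 0.29 and 0.57 in 85% O2, and the difference of -0.05 was not called. Gli2, the main activator, lay between -2.20 and -1.29 in all 32 mice. It was called in 1 of the 4 comparisons of oxygen, antimiR-34a at P14, where it rose by 0.44 (adjusted p = 0.0183). That call was lost without antimiR-34a replicate 4 in 85% O2 (adjusted p = 0.0611). In scrambled antimiR mice at P14 Gli2 differed by 0.20 (adjusted p = 0.258), and was called with normexp (0.31, adjusted p = 0.0118) and with array weights (0.31, adjusted p = 0.0393).

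**Figure D2:**
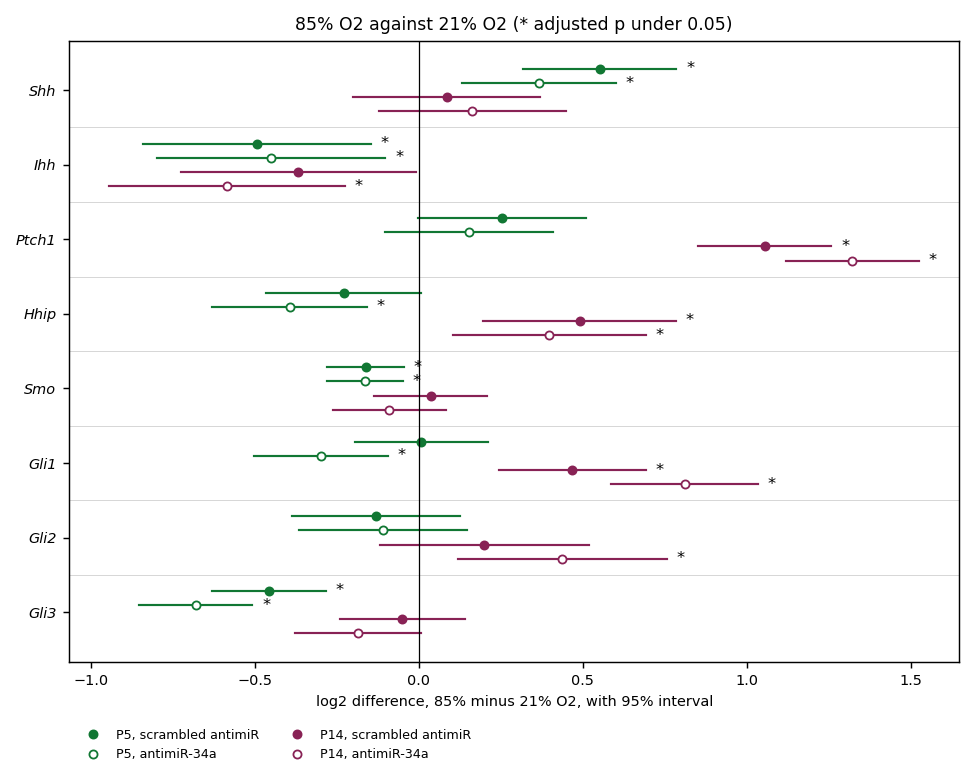
Log2 difference of 85% O2 against 21% O2 for the brightest probe of each Hedgehog gene, at P5 and P14, with scrambled antimiR and with antimiR-34a; points are fitted differences and bars their 95% intervals (4 mice per group), and an asterisk marks an adjusted p under 0.05. Ptch1 at P14 stood at 1.05 and 1.32, and Gli3 at P5 at -0.46 and -0.68.

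Counted over the 8 genes, hyperoxia changed 4 at P5 with the scrambled antimiR, Shh upwards and Ihh, Gli3 and Smo downwards. The share of all tested probes called in that comparison was 43.9% (17.4% higher and 26.5% lower), so a share of this size among 8 genes lies near that of the array. At P14 it changed 3 of the 8, Ptch1, Gli1 and Hhip, all upwards, against 60.9% of all tested probes (28.2% higher and 32.7% lower). With antimiR-34a it changed 6 at P5, Shh upwards and Ihh, Gli1, Gli3, Hhip and Smo downwards, against 46.6% of all probes (17.1% higher and 29.5% lower). That count was 3 with only the compared groups in the fit and 1 with the methods' t-test, and the count of 4 with the scrambled antimiR was 2 with normexp. The count of 3 at P14 was 5 with array weights. At P14 with antimiR-34a it changed 5, Ptch1, Gli1, Gli2 and Hhip upwards and Ihh downwards, against 65.5% of all probes (27.6% higher and 37.9% lower). The median difference of the 8 genes was -0.15 and 0.14 at P5 and P14 with the scrambled antimiR, beside -0.07 over all tested probes at both ages. With antimiR-34a it was -0.23 and 0.28, beside -0.09 and -0.12. Quantile normalization raised the median over all probes by 0.20 for antimiR-34a at P14, and normexp raised it by 0.17 and 0.11 at P14 with the scrambled antimiR and antimiR-34a.

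Whether the response to oxygen differed between the ages was tested as an interaction in scrambled antimiR mice. For Ptch1 the difference of 85% O2 against 21% O2 was greater at P14 than at P5 by 0.80 ± 0.15 (adjusted p = 0.000204), for Hhip on its brightest probe by 0.72 ± 0.18 (adjusted p = 0.00230) and for Gli1 by 0.46 ± 0.14 (adjusted p = 0.0109). The second Hhip probe differed by -0.76 (adjusted p = 0.0288), a call that was lost with the 75th percentile as a covariate (-0.57, adjusted p = 0.0633), and the mean of both probes gave -0.02 (adjusted p = 0.940). Gli3 was also higher in this contrast, by 0.41 ± 0.12 (adjusted p = 0.00751), where it fell at P5 and was not called at P14. Shh went the other way, with -0.47 ± 0.17 (adjusted p = 0.0338). The Shh call was lost without any one of 8 of the 16 arrays (adjusted p between 0.0527 and 0.0780), namely P5 21% O2 replicates 1, 2 and 4, P5 85% O2 replicates 1 and 3, P14 85% O2 replicates 3 and 4 and P14 21% O2 replicate 2. It was also lost with the 75th percentile as a covariate (-0.39, adjusted p = 0.0674), and the Gli1 call with normexp (0.30, adjusted p = 0.0917). Ihh (0.13), Gli2 (0.33) and Smo (0.20) were not called. The 5 calls of 8 stood beside 40.8% of all tested probes (22.8% higher and 18% lower).

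With age, in room air and with the scrambled antimiR, 7 of the 8 genes fell between P5 and P14 on their brightest probes and none rose, beside 51.4% of all tested probes (27.7% higher and 23.8% lower). Gli1 fell most, by 1.15 ± 0.10 or 2.22-fold (adjusted p = 9.91e-10). Gli3 followed with a fall of 0.87 (1.83-fold, adjusted p = 4.95e-09) and Ptch1 with a fall of 0.84 (1.79-fold, adjusted p = 5.48e-07). Shh fell by 0.43 (adjusted p = 0.00514), Gli2 by 0.43 (adjusted p = 0.0102), Hhip on its brightest probe by 0.40 (adjusted p = 0.0105) and Smo by 0.23 (adjusted p = 0.00408). Each of these 7 left no overlap between the 4 mice of either age. The share of all tested probes without overlap was not computed, so this count cannot be set against the array. With the mean of a gene's probes the fall of Hhip was lost (-0.07, adjusted p = 0.708) and Smo turned to a called rise (0.49, adjusted p = 0.0402). The second Hhip probe differed by 0.26 (adjusted p = 0.274), and the second Smo probe, whose match to Smo is uncertain, rose by 1.21 (adjusted p = 0.0108). Ihh, at -0.37, was not called (adjusted p = 0.0678), but was called at -0.60 with quantile normalization (adjusted p = 0.00150) and with the authors' values (adjusted p = 0.00151), and with only the compared groups in the fit (adjusted p = 0.0217), array weights (adjusted p = 0.0290) or the 75th percentile as a covariate (adjusted p = 0.0341). The median over the 8 was -0.43, beside 0.04 over all probes.

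In 85% O2 the picture over age was another one. Shh fell by 0.89 or 1.86-fold (adjusted p = 2.27e-06), Gli1 by 0.69 (adjusted p = 4.1e-06) and Gli3 by 0.47 (adjusted p = 6.78e-05). Ptch1 differed by -0.04 with a 95% interval of -0.27 to 0.18, and Gli2 by -0.10, Smo by -0.03 and Ihh by -0.25, none of them called. Hhip rose by 0.32 (adjusted p = 0.0415), a call that was lost with normexp (0.11), quantile normalization (0.16), the authors' values (0.16), no filter on dim probes, only the compared groups in the fit and the methods' t-test (adjusted p between 0.0591 and 0.456). With the mean of its probes the direction turned (-0.09, adjusted p = 0.637), where the second probe fell by 0.50 (adjusted p = 0.0397). That fall was not called with the 75th percentile as a covariate (-0.28, adjusted p = 0.222). The call for the rise of the brightest Hhip probe was also lost without P5 85% O2 replicate 2 (adjusted p = 0.169) or 3 (adjusted p = 0.0607). It was likewise lost without P14 85% O2 replicate 1 (adjusted p = 0.118) or 2 (adjusted p = 0.0851). The 4 calls, 1 higher and 3 lower, stood beside 42.1% of all probes (25.6% higher and 16.5% lower).

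AntimiR-34a against the scrambled antimiR gave no call among the 8 genes at either age or oxygen level in limma. At an unadjusted p under 0.05 there were 3 in 21% O2 at P5 (Ptch1, Hhip and Gli1), 1 in 85% O2 at P5 (Ptch1), 0 in 21% O2 at P14 and 2 in 85% O2 at P14 (Gli1 and Ptch1). Of 35984 tested probes at P5, 6322 in 21% O2 and 4716 in 85% O2 met that unadjusted threshold. At P14 it was met by 4034 and 6356 of 38458. The methods' t-test gave no called member either, and array weights gave 1, Ihh in 21% O2 at P14, at 0.39 (adjusted p = 0.0236). Over all tested probes the calls were 0.136% in 21% O2 and 0.0639% in 85% O2 at P5, and 0% and 2.67% at P14, so few genes of any kind were called.

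The values themselves were as follows. Ptch1 in 21% O2 at P5 read -0.09, 0.04, 0.15 and -0.11 with antimiR-34a, all above the 4 scrambled antimiR mice. That difference was 0.37 with a 95% interval of 0.11 to 0.62 (adjusted p = 0.166), and with the 75th percentile as a covariate it was 0.15 (adjusted p = 0.541). The antimiR-34a arrays of that slide were dimmer than the scrambled ones, with 75th percentiles between 9.60 and 9.72 against 9.90 and 10.12 in log2 brightness, and the part of that in the difference was not tested. Hhip there was at 4.48, 4.45, 4.92 and 4.57 against 4.30, 4.25, 4.32 and 4.2, again without overlap, a difference of 0.34 with an interval of 0.10 to 0.57 (adjusted p = 0.167). In 85% O2 at P14 the difference was 0.27 for Gli1 (interval 0.04 to 0.49, adjusted p = 0.205) and 0.23 for Ptch1 (interval 0.03 to 0.44, adjusted p = 0.223). These 4 intervals lay above 0, but none was called after adjustment over all probes. For Ptch1 in 21% O2 at P14 the interval was -0.24 to 0.17 around -0.03.

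**Figure D3:**
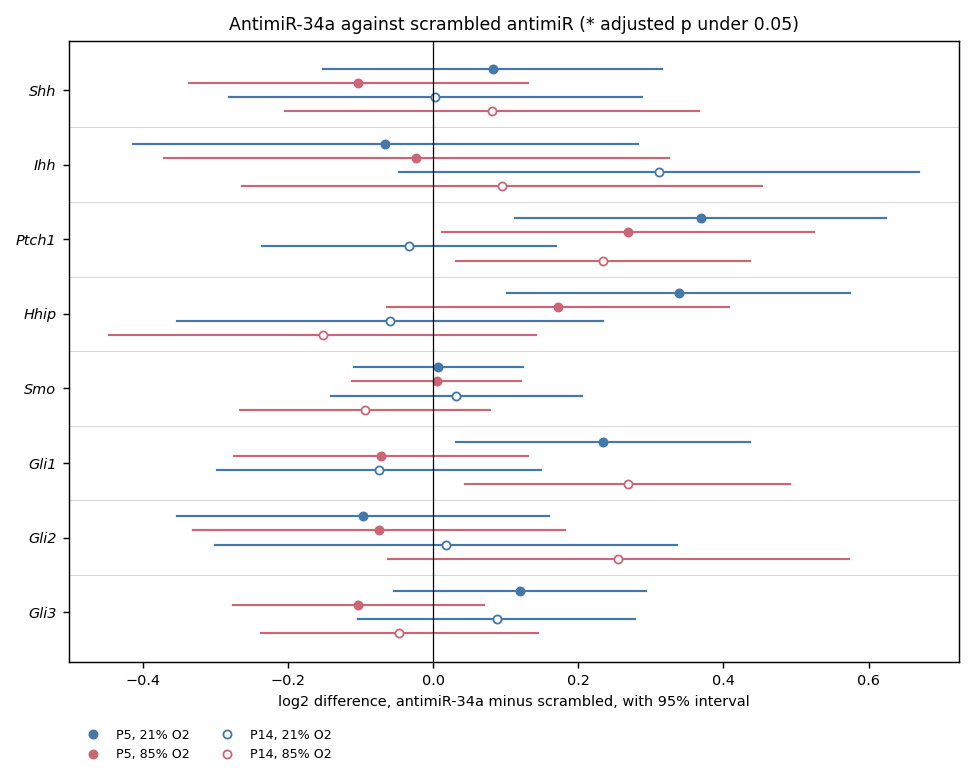
Log2 difference of antimiR-34a against scrambled antimiR for the brightest probe of each Hedgehog gene, at both oxygen levels and ages; points are fitted differences and bars their 95% intervals (4 mice per group). All differences lay between -0.15 and 0.37, and none was called.

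Whether the effect of antimiR-34a depended on oxygen was tested at each age, and none of the 8 genes was called in limma. The largest in size was Gli1 at both ages, with -0.31 at P5 (interval -0.59 to -0.02, adjusted p = 0.430) and 0.34 at P14 (interval 0.03 to 0.66, adjusted p = 0.304), the only gene of the 8 with an unadjusted p under 0.05 at either age. Over all tested probes 0.0556% were called at P5 and 0.0884% at P14. An unadjusted p under 0.05 was found for 3894 of 35984 tested probes at P5 and for 5758 of 38458 at P14.

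The second probes of Hhip and Smo did not behave as the first. The brightest Hhip probe lies at chr8:82494280-82494339 and the other at chr8:82490729-82490788 (mm9, minus strand). At P14 the other Hhip probe read 0.20, 0.28, -0.01 and 0.01 in 21% O2 and -0.11, -0.12, -0.94 and -1.23 in 85% O2 with the scrambled antimiR. It fell by 0.72 (adjusted p = 0.0136) where the first rose by 0.49, and with antimiR-34a it fell by 0.66 (adjusted p = 0.0198) where the first rose by 0.40. The mean of both probes gave -0.11 with the scrambled antimiR (adjusted p = 0.568), so the rise of Hhip belongs to 1 of its 2 probes. The second probe moved with the brightness of the array: its deviations from the group means correlated with those of the 75th percentile at r = 0.54 over the 32 arrays, against 0.09 for the first probe. The lowest values, -0.94 and -1.23, came from the 2 dimmest arrays of that group, at 9.48 and 9.37. With the 75th percentile as a covariate the fall was 0.55 (adjusted p = 0.0477).

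The brightest Smo probe lies at chr6:29711225-29711284 (mm9, plus strand), on the chromosome where RefSeq places Smo. The array annotation places the other at chr13:85164007-85164066 (minus strand), on another chromosome, so whether it reads Smo is uncertain. That probe read 2.06, 2.01, 1.59 and 3.93 in 21% O2 at P14 with the scrambled antimiR and 1.98, 3.95, 3.86 and 4.10 with antimiR-34a. In 85% O2 all 8 mice lay between -0.73 and 0.12. It fell by 2.38 with the scrambled antimiR (adjusted p = 0.000799) and by 3.88 with antimiR-34a (adjusted p = 1.2e-05), while the first Smo probe showed no call. Here too the value went with array brightness, with r = -0.77 over the 32 arrays. The scrambled antimiR array at 3.93 had the lowest 75th percentile of its group (9.34, the others at 10.12 to 10.18), and the antimiR-34a array at 1.98 the highest (10.20, the others at 9.56 to 9.64). With the 75th percentile as a covariate the scrambled antimiR difference was -3.06 (adjusted p = 1.25e-06).

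**Figure D4:**
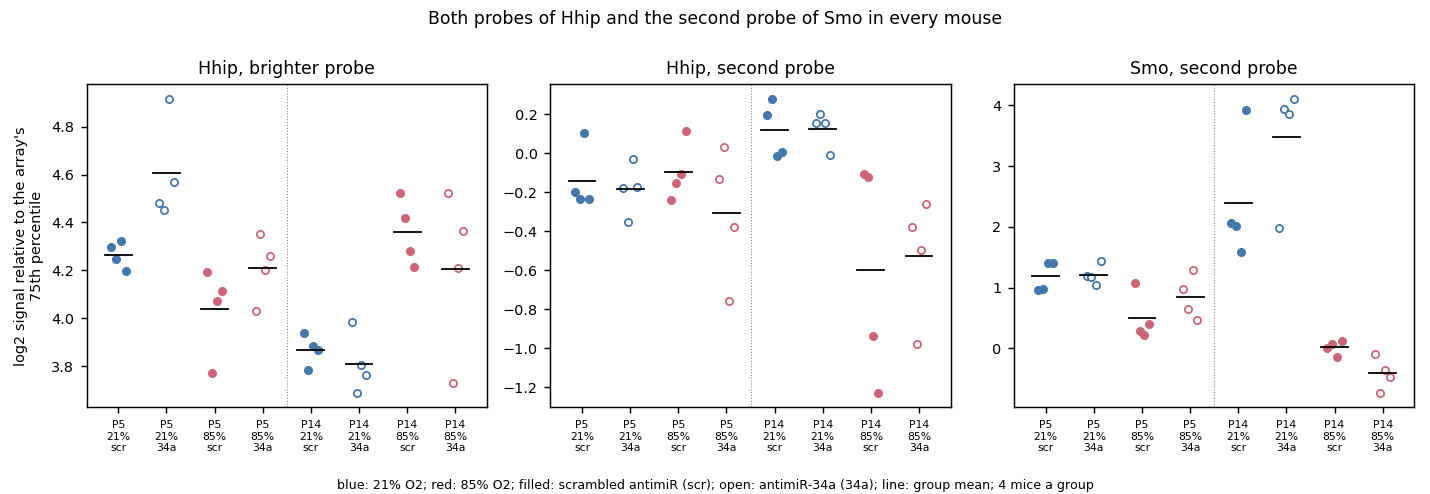
Log2 level (75th percentile of the array = 0) of the brightest and the second probe of Hhip and of the second probe of Smo in each of the 32 mice, by age, oxygen and antimiR; points are mice (filled for scrambled antimiR, open for antimiR-34a) and lines are group means (n = 4). In 85% O2 at P14 the brightest Hhip probe was higher and the second lower than in 21% O2, by 0.49 and -0.72 with the scrambled antimiR, and the second Smo probe lay at or under 0.12.

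With both P14 arrays in 21% O2 that stood apart in brightness left out, Ptch1 still rose by 1.03 with the scrambled antimiR (adjusted p = 8.73e-06) and by 1.32 with antimiR-34a (adjusted p = 5.3e-07). Gli1 rose by 0.45 (adjusted p = 0.00347) and 0.88 (adjusted p = 1.88e-05). The deviations of Ptch1 within groups correlated with brightness at r = -0.36, and those of Gli1 at 0.55, Gli2 at 0.55, Ihh at -0.46, Shh at 0.33 and Gli3 at 0.25.

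Beyond the 8 genes, the 45 listed genes that release, bind, transmit or answer the Hedgehog signal were all on the array, and 44 were tested. Hyperoxia with the scrambled antimiR changed 16 of the 44 at P5 (6 up and 10 down, median -0.01) and 23 at P14 (14 up and 9 down, median 0.13). Over all tested probes the shares called were 43.9% (17.4% up and 26.5% down) and 60.9% (28.2% up and 32.7% down), above the share of the lists at either age, and the counts of the single lists are to be read against these shares too. The lists hold genes with many other functions. Among the 8 genes that process or release the ligand, 2 changed at P5 and 5 at P14. Disp2, related to the transporter that frees the lipid-tailed ligand from its cell, rose by 1.13 at P5 (adjusted p = 1.54e-05) and 1.23 at P14 (adjusted p = 1.59e-07). Scube1 fell by 0.56 (adjusted p = 0.00572) and by 1.74 (adjusted p = 9.32e-07), and Scube2, a secreted partner in the release of the ligand, fell by 1.24 at P14 (adjusted p = 0.000223) with 0.04 at P5. Adam17, a protease, fell by 0.39 at P14. Hhat, the enzyme that attaches palmitate to the ligand, rose by 0.57 at P14, while its other probe fell by 0.85.

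Of the 6 co-receptors and ligand-binding proteins, 3 changed at each age. Gas1, a co-receptor, fell by 0.45 at P5 (adjusted p = 0.00710) and by 0.52 at P14 (adjusted p = 0.0156). Boc, another co-receptor, fell by 0.79 at P14 (adjusted p = 2.38e-06) and stood at -0.05 at P5. Gpc3, a glypican that competes for the ligand, fell by 0.43 at P5 (adjusted p = 5.93e-05) and rose by 0.34 at P14 (adjusted p = 0.00152), the latter not called with quantile normalization (0.19). Lrp2, an endocytic receptor, rose by 0.58 at P5 (adjusted p = 0.0116).

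Of 15 genes of signal transduction and the cilium, 2 fell at P5, while 5 rose and 2 fell at P14. Evc, a ciliary protein that binds Smo, fell by 0.55 at P5 (adjusted p = 0.000450) and rose by 0.72 at P14 (adjusted p = 0.000166), and the interaction with age was 1.27. Kif3a, a motor needed to build cilia, rose by 0.53 at P14 (adjusted p = 6.21e-05). Gsk3b, a kinase that marks Gli proteins for cutting, rose by 0.81 at P14, with another probe that fell by 0.38. Arl13b, a small GTPase of the cilium, fell by 0.42 at P14 (adjusted p = 0.000138). Prkaca, the catalytic subunit of protein kinase A, which restrains the pathway, fell by 0.40 at P5 and by 0.33 at P14, neither called with quantile normalization. Csnk1a1 rose by 0.27 at P14, also not called with quantile normalization (0.11). Sufu, the inhibitor that binds the Gli factors, was not called (-0.0036 at P5 and 0.36 at P14, adjusted p = 0.0527).

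Of 14 tested genes known to be induced by Hedgehog in lung mesenchyme or elsewhere, 4 rose and 4 fell at P5, and 6 rose and 1 fell at P14. Sfrp1, a secreted Wnt antagonist, rose by 2.56 at P14 (adjusted p = 1.16e-06) and stood at -0.16 at P5. Ccnd1 and Ccnd2, the D-type cyclins, rose at both ages, Ccnd1 by 1.01 (adjusted p = 2.73e-08) and 1.80 (adjusted p = 2.02e-09), and Ccnd2 by 0.69 and 0.70. Foxf2, a mesenchymal transcription factor, fell by 0.30 at P5 (adjusted p = 0.00647) and by 0.78 at P14 (adjusted p = 9.11e-06). Its relative Foxf1 rose by 0.33 at P5 (adjusted p = 0.0236) and by 0.24 at P14 (adjusted p = 0.0442), the latter at 0.04 with quantile normalization. Wnt5a fell by 0.79 at P5 (adjusted p = 3.63e-05) and stood at -0.01 at P14, Mycn rose by 0.48 at P5 (adjusted p = 0.00229), and Bcl2, an inhibitor of cell death, rose by 0.53 at P14 (adjusted p = 0.00508). Tbx3 rose by 0.26 at P14, and was not called with quantile normalization (0.06). Fgf10, the mesenchymal growth factor that Shh restrains during branching, fell by 0.56 at P5 (adjusted p = 0.000158) and by 0.62 at P14 (adjusted p = 2.16e-05).

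**Figure D5:**
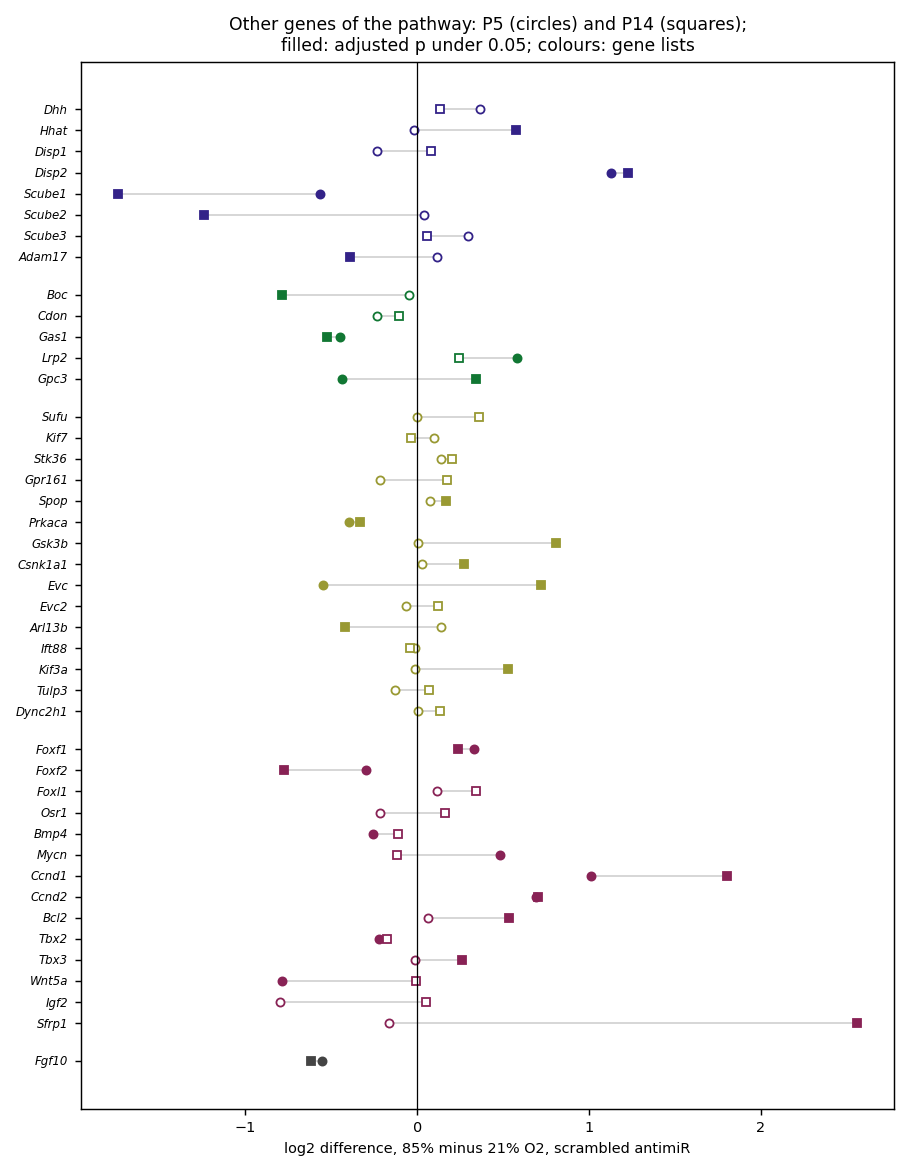
Log2 difference of 85% O2 against 21% O2 in scrambled antimiR mice for genes of the pathway lists, at P5 (circles) and P14 (squares), coloured by role; filled points were called (adjusted p under 0.05). The widest spread lay among induced genes at P14, from -0.78 for Foxf2 to 2.56 for Sfrp1.

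AntimiR-34a changed 1 of the 44 in 21% O2 and 1 in 85% O2 at P5, and 0 and 2 at P14, beside 0.136%, 0.0639%, 0% and 2.67% of all tested probes. Among them, Tbx2 rose by 0.40 in 21% O2 at P5, Arl13b fell by 0.36 in 85% O2 at P5, and Boc rose by 0.38 in 85% O2 at P14. Between the ages, 28 of the 44 changed in 21% O2 (11 up and 17 down) and 31 in 85% O2 (22 up and 9 down), beside 51.4% (27.7% up and 23.8% down) and 42.1% (25.6% up and 16.5% down) of all tested probes.

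Some markers of the cell types that send and receive the signal moved with oxygen too. Over all tested probes at P5, 43.9% were called with the scrambled antimiR (17.4% higher and 26.5% lower). With antimiR-34a that share was 46.6% (17.1% higher and 29.5% lower), and the counts below are to be read against these shares. At P5 in scrambled antimiR mice, all 6 mesenchymal markers fell (median -0.51), as did 5 of 6 markers of the alveolar myofibroblast (median -0.45), 4 of 6 of smooth muscle (median -0.48) and all 5 tested markers of proliferation (median -1.08). Gli3, Smo and Ihh fell and Shh rose in the same mice. Of the type I pneumocyte markers 5 of 6 rose (median 0.43), and of the type II markers, cells in which Shh is also made, 1 rose and 1 fell. The signals of a list's markers were also added up, and the log2 of that sum taken, in which the brightest marker weighs most. For the mesenchymal markers it ranged from 8.52 to 8.80 in 21% O2 and from 8.11 to 8.42 in 85% O2. For the myofibroblast markers it ranged from 8.0 to 8.05 and from 7.60 to 7.79. The part of these in the results for Gli3 and Smo was not tested. With antimiR-34a at P5, 3 of 6 mesenchymal markers fell (median -0.31), as did 4 of 6 myofibroblast markers (median -0.46), 2 of 6 smooth muscle markers (median -0.30) and all 5 tested proliferation markers (median -1.11), while 4 of 6 type I markers rose (median 0.36). Of the type II markers 1 rose and 1 fell there too, and the part of these in the 6 calls of that comparison was not tested.

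At P14, when Ptch1, Gli1 and Hhip rose, 4 of 6 mesenchymal markers fell (median -0.30) and none rose, and 3 of 6 myofibroblast markers fell and 1 rose (median -0.27). Of the type I pneumocyte markers 4 rose (median 0.46), of the type II markers 4 fell and 1 rose (median -0.35), of the lipofibroblast markers 4 fell and 1 rose (median -0.56), and of the endothelial markers 3 rose and 1 fell (median 0.18). The smooth muscle markers had 2 that rose and none that fell (median 0.18). The log2 of their summed signal ranged from 6.61 to 6.74 in 21% O2 and from 7.18 to 7.36 in 85% O2. With antimiR-34a at P14, 3 mesenchymal markers fell (median -0.21), 3 myofibroblast markers fell and 1 rose (median -0.33), 3 smooth muscle markers rose (median 0.45), 4 type I markers rose (median 0.40), 4 type II markers fell (median -0.33), 3 lipofibroblast markers fell and 1 rose (median -0.31), and 3 endothelial markers rose and 1 fell (median 0.13). These counts stand beside 60.9% of all tested probes called at P14 with the scrambled antimiR (28.2% higher and 32.7% lower). With antimiR-34a the share was 65.5% (27.6% higher and 37.9% lower). The part of these cell types in the results at P14 was not tested. With age in 21% O2, when 7 Hedgehog genes fell, all 5 tested proliferation markers fell (median -1.93) and 4 of 6 mesenchymal markers rose (median 0.45). With age in 85% O2, all 5 proliferation markers fell (median -1.33). The log2 of their summed signal lay between 3.97 and 4.24 in the P5 mice and between 2.68 and 2.97 in the P14 mice. All 6 mesenchymal markers rose there (median 0.57), as did 4 of 6 smooth muscle markers (median 0.71) and 5 of 6 type I markers (median 0.49), 3 myofibroblast markers rose and 1 fell (median 0.30), and 2 type II markers rose and 3 fell (median -0.09). Between the ages, 51.4% of all tested probes were called in 21% O2 (27.7% higher and 23.8% lower). In 85% O2 the share was 42.1% (25.6% higher and 16.5% lower). The part of these cell types in the age differences was not tested.

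Markers of heart and skeletal muscle, thymus, red blood cells and cartilage were looked at as well. Whether their RNA came from the lung itself or from tissue taken along with it was not tested. Their counts are also to be read against the shares of all tested probes called in the same comparisons, given above. With the scrambled antimiR, heart muscle markers were lower in 85% O2, with 5 of 6 down at P5 (median -1.70) and 4 of 6 at P14 (median -1.51), and of the thymus markers 5 of 6 were down at P14 (median -1.82). Red blood cell markers had 2 of 6 down at P5 and 3 of 6 at P14, and skeletal muscle markers 2 of 4 tested down at P5 (median -2.11) and 3 of 4 at P14 (median -1.71). With antimiR-34a, 1 heart muscle marker was down at P5 (median -1.02) and 3 at P14 (median -1.45), 5 thymus markers were down and 1 up at P14 (median -1.77), 2 red blood cell markers were down at each age, and 0 and 1 skeletal muscle markers were down. At P5 the skeletal muscle markers also stood apart in 1 mouse, P5 21% O2 scrambled antimiR replicate 4. The log2 of their summed signal was 5.30 in that mouse, where the lowest of its group was at 0.66. Without that mouse the P5 rise of Shh and fall of Gli3 were still called. Of the cartilage markers, the tissue Ihh is best known from, Col2a1 was well above background on all 32 arrays, Comp on 31, Acan on 29, Col9a1 on 13, Matn1 on 6 and Matn3 on 4. At P5 the log2 of the list's summed signal in scrambled antimiR mice ranged from -0.68 to -0.53 in 21% O2 and from -2.41 to -2.31 in 85% O2. At P14 it ranged from -1.30 to -0.40 and from -2.90 to -2.62. With antimiR-34a it ranged from -0.70 to -0.10 and from -2.65 to -2.20 at P5, and from -0.86 to 0.18 and from -3.11 to -2.51 at P14. It was lower in hyperoxia together with Ihh, and its part in the Ihh values was not tested.

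The genes whose levels ran most nearly in parallel with each member were found by the Pearson correlation over the 32 arrays among 17780 genes. The points share slides and groups, so each r includes the differences between groups, and the correlation of the deviations within groups follows each r. For Ptch1 they were Ccdc22 (r = 0.952, within groups 0.52), Stub1 (0.949, 0.57) and Psmd2 (0.948, 0.51). For Gli1 they were Pwp1 (0.948, within groups 0.70), Ctc1 (0.947, 0.43) and Mdga1 (0.943, 0.23). For Gli3 they were Smc2 (0.954, within groups 0.36), Mcm3 (0.953, 0.36) and Zwilch (0.951, 0.40), all genes of chromosome duplication or segregation. For Smo they were the DNA polymerase subunit Pola1 (0.888, within groups 0.75) and the histones Hist1h2ag (0.885, 0.76) and Hist1h2an (0.885, 0.74). For Shh they were Nek3 (0.928, within groups 0.45), Napg (0.902, 0.44) and Frem2 (0.894, 0.63). For Hhip they were Spats2l (0.875, within groups 0.68), Hnrnpm (0.844, 0.43) and Rfc1 (0.828, 0.44). For Gli2 they were Banf1 (0.818, within groups 0.74), Tulp3 (0.805, 0.66) and Exosc8 (0.804, 0.78), and for Ihh Shf (0.853, within groups 0.69), Trav14d-3-dv8 (0.814, 0.59) and Myo1a (0.813, 0.62). Among the members, Gli3 and Smo had r = 0.77 (within groups 0.08), Gli1 and Ptch1 0.76 (within groups -0.44), Gli1 and Shh 0.75 (within groups 0.42), Gli1 and Gli3 0.73 (within groups 0.34) and Ptch1 and Hhip 0.67 (within groups 0.35). For Gli1 and Ptch1 the sign within groups was thus opposite to that over all arrays.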

How the data were processed

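Whole-lung RNA of 32 mice was measured on one-colour Agilent arrays, 1 mouse per array, and groups were taken from the sample labels. The labels' titles give the ages as P5 and P14 and their extraction protocol as later by part of a day, and the labels name a miRNeasy kit for RNA isolation where the methods name peqGOLD. The deposited array files hold spot intensities that, per the file headers, Agilent Feature Extraction 10.7.3.1 had background-subtracted; no normalization between arrays had been applied. The authors' series table holds log2 values distributed alike in all columns, which quantile normalization would give, and was used as an alternative.

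The log2 of the processed intensity minus the 75th percentile of its array was used. Spots marked as outliers (0.211%) and control spots were left out and repeated spots averaged. A probe was tested if some group of the fit had it well above background on each of its 4 arrays (35984 at P5, 38458 at P14, 39163 for both ages). The number of mice limits the precision.

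Differences were fitted with limma 3.58.1 in R 4.3.3 (with version 1.17.8 of data.table), with 1 mean per group, moderated by empirical Bayes, and p-values were adjusted by Benjamini-Hochberg over every tested probe (threshold 0.05). Each age was fitted on its own 16 arrays, and contrasts of age on all 32. The pipeline was tested on simulated data. A gene was represented by its brightest tested probe, and other probes are given where they disagreed. From the pathway lists, the called genes with the largest change were named, up to 6 per list and comparison. Sufu, which was not called, was named after its values were seen. A gene of the lists is not reported here. For each member, the 3 genes with the highest correlation over the 32 arrays were named. The members, the 45 pathway genes (Foxf1 had also been listed by its older symbol) and the 15 marker lists of 6 genes were chosen with earlier results of these data known.

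Alternatives were normexp background correction (offset 50), no filter on dim probes, quantile normalization, array weights, only probes above background on all arrays, a fit without the other groups, the t-test of the methods, the replicate number as a block, the mean of all probes of a gene, a fold threshold of 2, the authors' values and each array left out in turn. The 75th percentile as a covariate and the fit without 2 arrays that stood apart in brightness were added after the data were seen. Probes are placed by the annotation in the array files (mm9), and sequences are from RefSeq (GRCm38.p6). Position within exon or untranslated region is not given here.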

Additional observations from a re-analysis of the deposited data

Results flagged for a closer look

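Of 80 groups of 4 mice over the member probes, 7 held a mouse apart from the other 3 by Dixon's test, where chance alone gives about 1 in 20. These were Shh at -0.79 (highest) in P14 21% O2 scrambled antimiR replicate 2, Ihh at -4.30 (lowest) in replicate 3 of the same group, and Gli1 at 2.71 (lowest) in P5 85% O2 scrambled antimiR replicate 3. They were also Gli3 at 1.07 (highest) in replicate 1 of that last group, and Smo at 3.30 (lowest) in P14 85% O2 antimiR-34a replicate 2. The second Hhip probe was apart at 0.10 (highest) in P5 21% O2 scrambled antimiR replicate 3, and the second Smo probe at 1.98 (lowest) in P14 21% O2 antimiR-34a replicate 1.

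The oxygen response of scrambled antimiR mice differed between the ages by the limma interaction test (P14 minus P5) for Shh (-0.47), Gli1 (0.46), Gli3 (0.41), Ptch1 (0.80), Hhip on its brightest probe (0.72), the second Hhip probe (-0.76) and the second Smo probe (-1.69). The Hhip probes went in opposite directions in this contrast, and the call of the second was lost with the 75th percentile as a covariate (-0.57, adjusted p = 0.0633).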

How the results depend on the processing

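Of the 34 differences in single Hedgehog genes that were called, 18 kept their direction and their call in all settings besides the fold threshold of 2 and the leaving out of single arrays, and 17 also without any single array. The 17 were Shh and Gli3 at P5, Gli1 and Ptch1 at P14, Gli3 at P5 and Gli1 and Ptch1 at P14 with antimiR-34a, the age differences of Gli1, Gli2, Gli3, Ptch1 and Shh in 21% O2 and of Gli1, Gli3 and Shh in 85% O2, and the differences of the oxygen response between ages of Gli3 and Ptch1. Of 184 counts of called genes in the settings besides leaving out arrays, 170 lay within 1.5 times of the value given, and so did all 144 counts without single arrays.

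Oxygen with the scrambled antimiR gave 2 called members at P5 with normexp and 5 at P14 with array weights. With antimiR-34a it gave 3 at P5 with only the compared groups in the fit and 1 with the methods' t-test. AntimiR-34a in 21% O2 at P14 gave 1 with array weights. With a fold threshold of 2, oxygen with the scrambled antimiR kept 0 members and 2 pathway genes at P5, and 1 member and 5 pathway genes at P14. With antimiR-34a it kept 0 at P5 and 1 at P14, the interaction with age 0, and age 1 in 21% O2 and 0 in 85% O2. The share of all tested probes that passed this threshold was not computed, so these counts cannot be set against the array. Without single arrays the counts for oxygen were 3 to 4 at P5 and 3 to 4 at P14 with the scrambled antimiR, 4 to 6 and 4 to 5 with antimiR-34a, 4 to 5 for the interaction, and 7 and 3 to 4 for age.

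Sign changes were few. Gli1 at P5 (scrambled antimiR) was -0.039 with quantile normalization and the authors' values and -0.014 with array weights. Ihh at P14 was 0.14 with normexp and 0.031 with quantile normalization and 0.030 with the authors' values, and with antimiR-34a 0.10 with the latter 2. Smo at P14 was -0.13 with those 2. With the mean of a gene's probes, Hhip was -0.11 (scrambled antimiR) and -0.13 (antimiR-34a) for oxygen at P14, -0.020 for antimiR-34a in 85% O2 at P5, -0.022 for the interaction with age and -0.091 for age in 85% O2, and Smo was -1.17 for oxygen at P14 and 0.49 for age in 21% O2. The cause was not tested beyond the probes' own values. Without single arrays, oxygen in scrambled antimiR mice ranged from -0.018 to 0.036 for Gli1 at P5, and at P14 from -0.089 to 0.020 for Gli3, -0.011 to 0.15 for Shh and -0.0039 to 0.067 for Smo. AntimiR-34a at P14 ranged from -0.061 to 0.0048 for Ptch1 in 21% O2 and from -0.26 to 0.0064 for Hhip in 85% O2.

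Same-numbered mice did not deviate together in every pair (median r 0.01 at P5 and 0.04 at P14, over 24 pairs each, and in 10 and 21 of 48 comparisons of an array with another group the closest mouse had its own number, where 12 would be expected if the numbers meant nothing). The P14 value lies above that. Between the P14 groups in 21% O2, r was 0.42 and 0.50 for replicates 1 and 4, and -0.06 and -0.35 for replicates 2 and 3. The main fit did not use the numbers, and whether they mark a shared structure at P14 was not tested beyond the replicate block. With the replicate block, oxygen gave 4 called members at P5 and 4 at P14 with the scrambled antimiR, 5 and 5 with antimiR-34a, and age 7 and 4.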
